A study of Mus musculus with 29 samples.

Results

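The genes described here are 10 members of the Bcl2 family, which decides whether a cell keeps or opens its mitochondrial outer membrane. They were matched by gene name, from a list drawn up with earlier results of these data known, in the expression tables of pro-B cells, the early B cell progenitors that rearrange their immunoglobulin heavy chain genes. All 10 were found among the 24732 entries of the mm9 tables and among the 25588 entries of the mm10 tables. They fall into 3 pro-survival genes (Bcl2, Bcl2l1 and Mcl1), 2 effectors (Bax and Bak1) and 5 BH3-only genes (Bcl2l11, Bid, Bad, Pmaip1 and Bbc3).

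RNA-seq had been performed with pro-B cells sorted directly from C57BL/6 mice. The wild-type group held 3 libraries of cells whose gate included B220+Kit+CD2-IgM-IgD-. The Pax5(-/-) group held 2 libraries of progenitors whose gate included B220+Kit+Ly6D+ and differed in other markers, so that genotype and sorting gate cannot be told apart. A separate group of 3 libraries came from pooled cells of Pax5(+/+) Meox2-cre mice aged 3 weeks, which carry the ubiquitously active Meox2-cre allele. The labels give these mice as Pax5(+/+), whereas a sample list of the study gives them as Pax5(+/-), and this difference could not be settled here. Pax5 was at 376 to 397 TPM in these libraries. The group was aligned to another genome build and serves here as a description of levels in cells with at least one Pax5 allele, with no test against the mm9 tables. The age of the other mice was not given in the sources used here. Nothing in the labels says whether libraries of a group came from separate mice, so that p-values measure only the spread between these libraries.

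In healthy cells the pro-survival proteins hold the effectors Bax and Bak in check by binding them and by sequestering BH3-only proteins. When BH3-only proteins such as Bim (encoded by Bcl2l11), Puma (Bbc3) or Noxa (Pmaip1) accumulate, Bax and Bak are freed, form pores in the outer mitochondrial membrane and release cytochrome c, which activates caspases through Apaf1. Early B cell progenitors depend on interleukin-7 for survival, and the transcription factor Pax5 commits these progenitors to the B cell lineage.

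The targeted gene checked the labels. TPM values are transcript shares of a library, corrected for transcript length and scaled to a fixed total. Pax5 was at 342, 386 and 391 TPM in wild-type cells and fell to 43.0 and 39.1 TPM in Pax5(-/-) cells (log2 fold change -3.17, adjusted p = 3.14e-06, limma). Gene-level values do not show which exons the remaining reads came from. Of the sorting markers, Ly6d averaged 219 TPM in wild-type and 2646 TPM in Pax5(-/-) cells, in the direction set by the gates. Kit (adjusted p = 0.289, limma) and Ptprc, which encodes B220 (adjusted p = 0.288, limma), did not pass the test. Cd2 was low in both groups, averaging 1.55 TPM in wild-type and 0.107 TPM in Pax5(-/-) cells. It passed the test as lower in Pax5(-/-) cells (log2 fold change -1.75, adjusted p = 0.00657, limma). The CD3 genes Cd3e, Cd3d and Cd3g stayed under 0.44 TPM in every library. Libraries correlated across genes with r of 0.991 to 0.993 within wild-type and 0.996 between the Pax5(-/-) libraries, genes not being independent replicates. TPM tables keep no read numbers, so the reads behind each value are unknown, and only relative depths could be estimated. In a sorted population, fewer cells of a type and less RNA per cell cannot be told apart.

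The promoter sequences of the pro-survival genes are shown because this group held the member with the strongest difference between the genotypes. Pmaip1 was left out of this search. In RefSeq (GRCm38.p6), the 9 other members were matched to 15 start sites. The windows searched held 250 bases before and 50 bases after each start. Bcl2l1, which encodes Bcl-xL, had 3 start sites, and the gene-level TPM values do not say which of them was used. The 250 bases before each of the 3 starts are given 5′ to 3′. Capitals mark matches to the ETS motif GGAAGT or to either STAT motif that lie wholly within these bases.

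Bcl2l1, chr2:152828490-152828739, minus strand: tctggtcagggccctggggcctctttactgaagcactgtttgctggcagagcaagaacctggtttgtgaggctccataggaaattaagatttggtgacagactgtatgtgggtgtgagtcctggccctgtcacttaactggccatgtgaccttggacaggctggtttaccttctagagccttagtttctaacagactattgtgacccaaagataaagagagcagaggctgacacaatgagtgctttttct
Bcl2l1, chr2:152830718-152830967, minus strand: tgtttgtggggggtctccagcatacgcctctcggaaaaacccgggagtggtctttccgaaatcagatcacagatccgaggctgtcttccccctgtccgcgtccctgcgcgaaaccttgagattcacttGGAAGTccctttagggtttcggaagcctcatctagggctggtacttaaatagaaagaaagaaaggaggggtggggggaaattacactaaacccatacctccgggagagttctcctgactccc
Bcl2l1, chr2:152831729-152831978, minus strand: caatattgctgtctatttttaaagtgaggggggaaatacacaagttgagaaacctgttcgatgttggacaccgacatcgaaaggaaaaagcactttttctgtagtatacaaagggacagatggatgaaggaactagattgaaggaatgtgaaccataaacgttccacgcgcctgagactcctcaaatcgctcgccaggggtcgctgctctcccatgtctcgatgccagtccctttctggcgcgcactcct

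The single starts of Bcl2 and Mcl1 are given in the same way for comparison.

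Bcl2, chr1:106714291-106714540, minus strand: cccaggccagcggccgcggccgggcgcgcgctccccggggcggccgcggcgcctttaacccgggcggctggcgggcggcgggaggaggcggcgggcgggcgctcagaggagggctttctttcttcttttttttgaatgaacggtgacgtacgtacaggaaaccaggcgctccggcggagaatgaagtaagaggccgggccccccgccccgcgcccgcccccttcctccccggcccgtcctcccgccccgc
Mcl1, chr3:95658471-95658720, plus strand: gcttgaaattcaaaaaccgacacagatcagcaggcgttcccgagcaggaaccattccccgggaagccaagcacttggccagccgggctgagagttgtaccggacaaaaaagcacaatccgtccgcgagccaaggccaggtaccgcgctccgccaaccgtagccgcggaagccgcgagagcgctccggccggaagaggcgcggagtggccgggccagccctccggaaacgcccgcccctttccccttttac

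The Bcl2l1 stretches were 47.6% to 53.2% G and C, against 64.4% for Mcl1 and 74.8% for Bcl2. The STAT motif TTCNNNGAA was found in none of the 15 windows of these genes, and in 8.30% of all 32851 windows. The STAT motif variant with a spacer 1 base wider was found at 1 Bcl2l1 start, the first one printed, and in 6.95% of all windows. That match begins 4 bases before the start site and runs past the printed bases, so it is not in capitals. GGAAGT was found in 6 of the 15 windows (of Bcl2l1, Mcl1, Bak1 and Bad) and in 23.8% of all. The FoxO motif GTAAACA was found in 2 windows (Bcl2l11 and Bbc3) and in 3.65% of all. The E-box CACGTG was likewise found in 2 windows (Bax and Bbc3) and in 7.15% of all. The EBF motif was found in none and in 0.904% of all, a loose NF-κB motif in 3 (Bak1, Bbc3 and Bcl2l11) and in 20.7% of all, and the p53 half-site in 1 (Bax) and in 8.36% of all. All motifs were searched on both strands, and matches of the STAT, ETS and other patterns may overlap. These matches describe letters in the windows and no binding.

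Short stretches around the FoxO matches of the BH3-only genes and an E-box match of Bax, in capitals, show how they lie in their sequence. The match of Bbc3 reads on the opposite strand.

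Bax, chr7:45466899-45466928, minus strand: cctgcagcgagcgatgatgatCACGTGact
Bbc3, chr7:16310082-16310111, plus strand: gtctggcgggttTGTTTACaaacaatgggg
Bcl2l11, chr2:128125799-128125828, plus strand: caagacactaggGTAAACAcgccggggtgg

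In wild-type pro-B cells the effectors were the most abundant members, pro-survival transcripts consisted almost wholly of Mcl1 and Bcl2l1, and Bcl2 was scarce. Bak1 was at 334 ± 53.9 TPM and Bax at 227 ± 11.2 TPM (SD, n = 3). Mcl1 followed at 163 ± 23.8 TPM and Bcl2l1 at 142 ± 13.5 TPM. Bid and Bad, BH3-only genes linked to death receptor and growth factor signalling, were at 77.6 ± 7.51 and 65.1 ± 7.98 TPM. Bcl2l11 was at 20.7 ± 0.844 TPM, Bbc3 at 9.92 ± 1.87 TPM, Bcl2 at 3.35 ± 0.764 TPM and Pmaip1 at 1.47 ± 0.640 TPM. Of the neighbours in this order, only Mcl1 and Bcl2l1 had overlapping values. The Meox2-cre libraries gave the same order of means, with Bid and Bad overlapping, and 133 ± 8.55 TPM for Bcl2l1, 190 ± 2.16 TPM for Mcl1 and 3.60 ± 0.466 TPM for Bcl2 (SD, n = 3). By their means, Pax5(-/-) cells kept 9 of the genes in this relative order, but Bcl2l1 moved from the fourth to the sixth place, below Bid and Bad. The Pax5(-/-) values of Bid and Bad overlapped, with Bid above Bad in 1 of the 2 libraries.

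**Figure D1:**
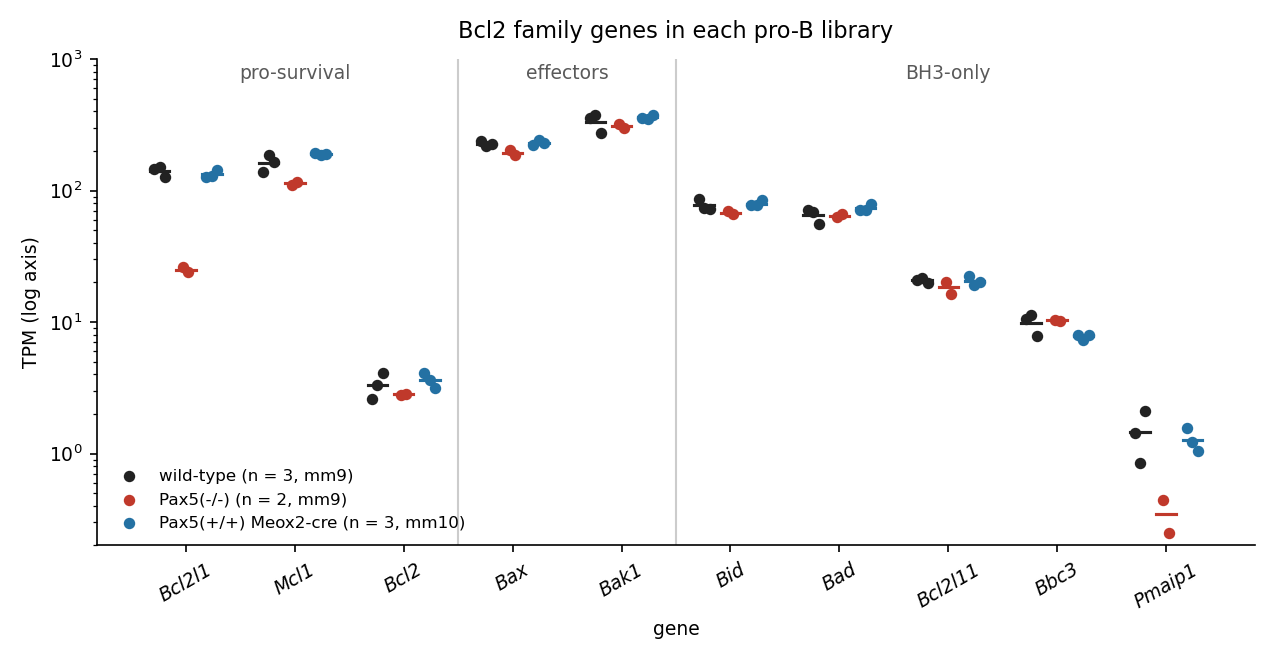
TPM of the 10 genes (log axis) in each wild-type, Pax5(-/-) and Meox2-cre library, ordered by role; points are libraries and bars are means. Both Pax5(-/-) points of Bcl2l1 (23.9 and 26.0 TPM) lie apart from the 6 others, which range from 126 to 152 TPM, whereas the wild-type and Pax5(-/-) points of Bcl2, Bak1, Bcl2l11, Bad and Bbc3 overlap.

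Among the 10 members, 3 were lower and 0 were higher in Pax5(-/-) than in wild-type pro-B cells at an adjusted p below 0.05 (limma on log2(TPM + 0.5), adjusted over 12066 genes). At an unadjusted p below 0.05 the count of higher members was also 0. Of all genes tested, 21.5% were lower and 15.6% were higher at this threshold, 37.1% in either direction. The thresholds of the study, which add a change of over 3-fold and a mean above 5 TPM, were passed by Bcl2l1 alone, against 3.15% of all genes in the lower direction and 2.71% in the higher. The median log2 fold change of the members was -0.19, and that of all genes tested was -0.12. Rescaling the libraries by median ratios moved the median of all genes to -0.01 and the share of lower and higher calls to 19.0% and 19.8%.

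Bcl2l1 (chr2:152593052-152657464 in mm9, minus strand) was at 147, 152 and 126 TPM in the wild-type libraries. In the Pax5(-/-) libraries it was at 26.0 and 23.9 TPM. The groups did not overlap, and every Pax5(-/-) value lay far below the lowest wild-type value. The log2 fold change was -2.48 ± 0.12 (SE), a 5.57-fold lower level on the TPM + 0.5 scale (adjusted p = 1.39e-05, limma). Its change lay at the 2.0 percentile of all genes tested. The gene produces the pro-survival Bcl-xL and, by an alternative splice site, the shorter pro-apoptotic Bcl-xS, which these gene-level values do not separate.

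Mcl1 (chr3:95462643-95467099, plus strand), whose short-lived protein is required by many lymphoid progenitors, was at 139, 187 and 164 TPM in wild-type and at 111 and 115 TPM in Pax5(-/-) cells. The groups did not overlap, but the lowest wild-type library lay close to the Pax5(-/-) values. Mcl1 fell by 0.52 ± 0.13 (SE) on the log2 scale (adjusted p = 0.0204, limma). This call was lost without either Pax5(-/-) library, with adjusted p of 0.149 without replicate 1 and 0.138 without replicate 2 (limma), and with a variance prior that had no trend (adjusted p = 0.0563, limma).

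Bcl2 (chr1:108434755-108610851, minus strand), the founding member of the family, was at 2.60, 3.31 and 4.13 TPM in wild-type and at 2.81 and 2.85 TPM in Pax5(-/-) cells. The Pax5(-/-) values lay within the wild-type range (log2 fold change -0.19 with a 95% interval of -0.77 to 0.40, adjusted p = 0.584, limma).

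**Figure D2:**
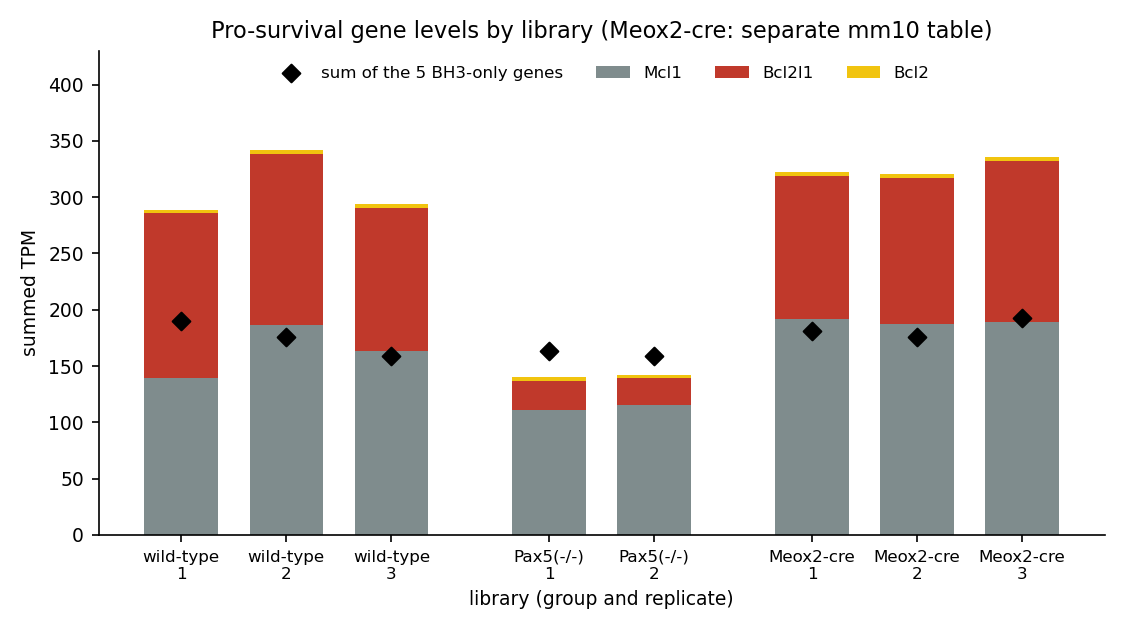
Summed TPM of Mcl1, Bcl2l1 and Bcl2 in each library (stacked bars from 0) and the summed TPM of the 5 BH3-only genes (diamonds). In the Pax5(-/-) libraries the bars end at 140 and 142 TPM, below the diamonds at 163 and 159 TPM, while in the other 6 libraries they end at 289 to 342 TPM, above the diamonds.

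The pro-survival genes together made up 289 to 342 TPM in the wild-type libraries, 140 and 142 TPM in the Pax5(-/-) libraries and 321 to 335 TPM in the Meox2-cre libraries. The 5 BH3-only members together made up 159 to 190 TPM in wild-type and 163 and 159 TPM in Pax5(-/-) cells, with other BH3-only genes such as Bmf not counted. The ratio of the summed pro-survival to the summed BH3-only TPM was 1.52, 1.95 and 1.85 in wild-type, 0.858 and 0.891 in Pax5(-/-) and 1.74 to 1.82 in Meox2-cre libraries. Thus the sums changed their order in the Pax5(-/-) libraries, although these are transcript levels and not amounts of protein. The pro-survival share of all 10 genes was 26.9% to 31.0% in wild-type, 16.9% and 18.1% in Pax5(-/-) and 29.4% to 29.8% in Meox2-cre libraries.

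Within the pro-survival genes, Bcl2l1 made up 50.9%, 44.4% and 42.9% of the sum in wild-type and 18.6% and 16.8% in Pax5(-/-) libraries. Mcl1 correspondingly made up 48.2% to 55.7% in wild-type and 79.4% and 81.2% in Pax5(-/-) libraries, despite its own lower level. Bcl2 stayed at 2.01% or less of the sum in every library. The ratio of Bcl2l1 to Bcl2l11 TPM, a pair whose proteins bind each other, was 7.10, 7.04 and 6.36 in wild-type and 1.29 and 1.45 in Pax5(-/-) libraries. The ratio of Mcl1 to Bcl2l11 TPM overlapped between the genotypes, at 6.72 to 8.67 and at 5.51 and 6.99. These ratios describe the libraries and were given no test of their own.

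The effectors did not pass the test. Bax (chr7:52717065-52722268, minus strand) was at 239, 218 and 224 TPM in wild-type and at 203 and 186 TPM in Pax5(-/-) cells. Both Pax5(-/-) values were below every wild-type value, but the log2 fold change of -0.22 had a 95% interval of -0.45 to 0.0022 (adjusted p = 0.108, limma). Bak1 (chr17:27156755-27165954, minus strand) was at 355, 374 and 272 TPM in wild-type and at 322 and 297 TPM in Pax5(-/-) cells. These groups overlapped (log2 fold change -0.10, 95% interval -0.44 to 0.25, adjusted p = 0.638, limma). The ratio of Bax to Bcl2l1 TPM was 1.43 to 1.77 in wild-type and 7.78 and 7.79 in Pax5(-/-) libraries.

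Of the 5 BH3-only members, Pmaip1 alone passed the test. Pmaip1, whose product Noxa binds Mcl1, was at 1.43, 0.842 and 2.12 TPM in wild-type and at 0.446 and 0.247 TPM in Pax5(-/-) cells. The groups did not overlap, and the log2 fold change was -1.17 ± 0.36 (adjusted p = 0.0367, limma) at levels below 5 TPM. The ratio of mean TPM with no pseudocount gave a log2 value of -2.08. Both Pax5(-/-) values of Pmaip1 were near the floor, in libraries with estimated relative depths of 0.855 and 1.545. Few reads may lie behind them, so the size of the change and their spread are uncertain. The call was lost without any single library other than wild-type replicate 2, with adjusted p of 0.0585 without wild-type replicate 1, 0.0924 without wild-type replicate 3, and 0.106 and 0.204 without Pax5(-/-) replicates 1 and 2 (limma). It was also lost with quantile normalization (adjusted p = 0.123, limma) and could not be made with a filter at 5 TPM.

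The other BH3-only members stayed close between the genotypes. Bcl2l11 (chr2:127951774-127988283, plus strand), which encodes Bim, a major killer of cytokine-deprived lymphocytes, was at 20.7, 21.6 and 19.9 TPM in wild-type and at 20.2 and 16.5 TPM in Pax5(-/-) cells (log2 fold change -0.18, 95% interval -0.53 to 0.17, adjusted p = 0.378, limma). Bid (chr6:120841948-120866871, minus strand), which caspase-8 cleaves, was at 86.3, 73.6 and 73.1 TPM in wild-type and at 69.4 and 66.1 TPM in Pax5(-/-) cells. Both Bid values in Pax5(-/-) cells were below the wild-type ones, but the test was not passed (log2 fold change -0.19, 95% interval -0.46 to 0.08, adjusted p = 0.230, limma). Bbc3 (chr7:16894965-16903554, plus strand), a p53 target gene, was at 10.6, 11.4 and 7.80 TPM in wild-type and at 10.4 and 10.2 TPM in Pax5(-/-) cells (log2 fold change 0.07, 95% interval -0.41 to 0.55, adjusted p = 0.808, limma). Bad (chr19:7016351-7026388, plus strand), held inactive by growth factor signalling, was at 71.0, 68.2 and 56.0 TPM in wild-type and at 62.7 and 66.3 TPM in Pax5(-/-) cells (log2 fold change -0.01, 95% interval -0.31 to 0.30, adjusted p = 0.980, limma). Bad carries a mark for overlap with another gene in the mm9 tables, so that its reads may be shared. For Bcl2l11, Bbc3 and Bad the groups overlapped.

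**Figure D3:**
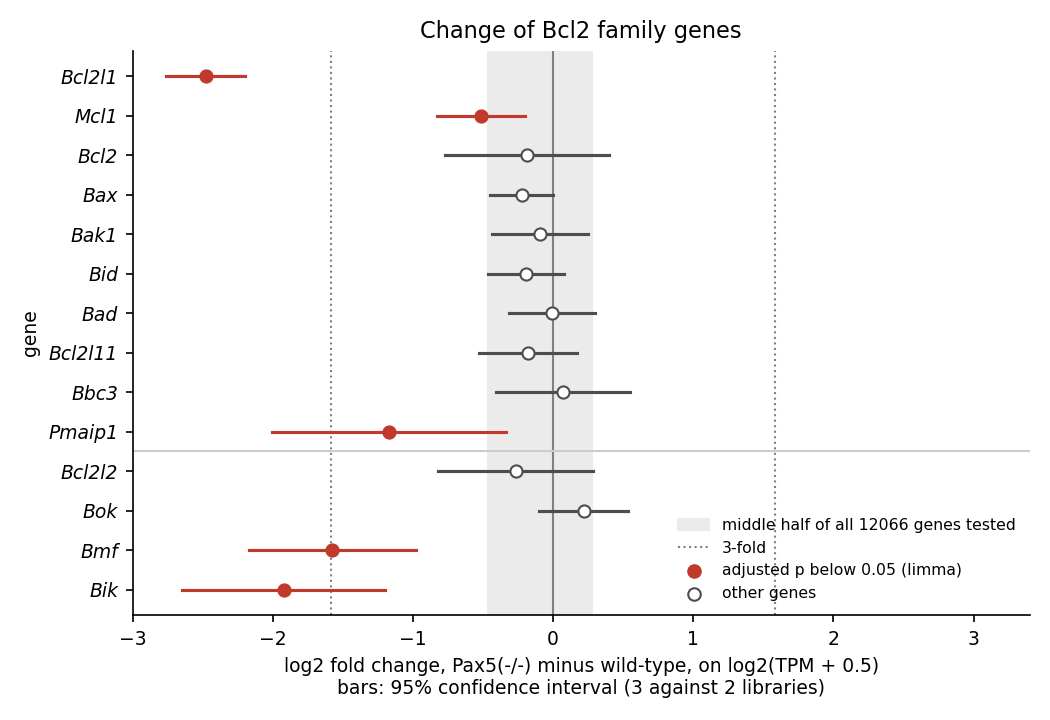
Log2 fold change of the 10 genes and of 4 further family genes that could be tested, Pax5(-/-) minus wild-type, with 95% confidence intervals; filled points passed an adjusted p below 0.05, the grey band spans the quartiles of all 12066 genes (-0.47 to 0.28) and dotted lines mark 3-fold. Bcl2l1 at -2.48 is the member beyond the 3-fold line, and 7 of the members have intervals that include 0.

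Taken by separation alone, 5 of the 10 members (Bcl2l1, Mcl1, Bax, Bid and Pmaip1) had both Pax5(-/-) values below every wild-type value, and 0 had both above. The same separation was found for 37.4% of all genes downwards and for 26.1% upwards. An exact permutation test of 3 against 2 libraries cannot give a two-sided p below 0.1.

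The genes whose pattern over the 5 mm9 libraries lay nearest to that of Bcl2l1, by Euclidean distance of log2(TPM + 0.5), were Bst1, Cep164 and Dnajc21. Bst1, a surface ADP-ribosyl cyclase of lymphoid progenitors, was at 123, 140 and 129 TPM in wild-type and at 22.6 and 20.9 TPM in Pax5(-/-) cells (distance 0.393). Cep164, a centriole component, was at 109, 148 and 121 TPM and at 28.5 and 22.7 TPM (distance 0.462). Dnajc21, a co-chaperone, was at 125, 160 and 147 TPM and at 21.6 and 20.1 TPM (distance 0.487). The likeness covers level and difference together and was given no test.

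Several other features of the libraries moved with the lower Bcl2l1 level. Of 12 pro-B genes, 8 were lower and 0 higher in Pax5(-/-) cells, and of 8 proliferation genes 6 were lower and 0 higher. Bcl2l1 is also known to be abundant in erythroid cells. The erythroid transcription factor gene Klf1 was at 8.5, 22.8 and 23.1 TPM in wild-type and was lower in Pax5(-/-) libraries, at 4.73 and 3.47 TPM (adjusted p = 0.0109, limma), while the globin genes Hba-a1 and Hbb-b1 were listed at 0 in every wild-type library. In the same order of wild-type libraries Bcl2l1 was at 147, 152 and 126 TPM. The summed TPM of the myeloid markers (7 in the mm9 and 8 in the mm10 tables) was 45.9 to 252 in wild-type, 55.4 to 83.7 in Pax5(-/-) and 442 to 1223 in Meox2-cre libraries, and Bcl2l1 was at 127, 129 and 143 TPM in the last. Of the 7 myeloid markers tested, 2 were lower in Pax5(-/-) cells, Elane (log2 fold change -3.10, adjusted p = 0.0163, limma), which passed the study's thresholds, and Itgam (log2 fold change -1.22, adjusted p = 0.0215, limma), and 0 were higher. By separation alone, 3 of the 7 had both Pax5(-/-) values below every wild-type value and 1, Mpo, had both above. Mpo did not pass the test (log2 fold change 1.02, adjusted p = 0.0811, limma). Of 7 T cell markers, Lck and Cd4 were higher, and the others were under 0.44 TPM in every mm9 library. The part of these differences in the levels of the Bcl2 family genes was not tested.

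Of 10 further Bcl2 family genes, 4 could be tested, 2 of which were lower and 0 higher in Pax5(-/-) cells. Both were BH3-only genes. Bmf, whose product senses loss of anchorage and cytokine, was at 29.0, 51.9 and 39.9 TPM in wild-type and at 10.9 and 15.1 TPM in Pax5(-/-) cells, without overlap (log2 fold change -1.58 ± 0.25, adjusted p = 0.00302, limma). This was 2.98-fold on the TPM + 0.5 scale and thus just under the 3-fold threshold. Bik was at 1.34, 2.11 and 1.30 TPM in wild-type and at 0 and 0.0869 TPM in Pax5(-/-) cells (log2 fold change -1.92, adjusted p = 0.00300, limma). Bcl2l2, which encodes the pro-survival Bcl-w, and the effector relative Bok did not pass the test, with adjusted p of 0.405 and 0.241 (limma). The pro-survival Bcl2a1a, Bcl2a1c, Bcl2a1d and Bcl2l10 and the BH3-only gene Hrk were listed at 0 in all 5 mm9 libraries, and Bcl2a1b was under 0.39 TPM. The Bcl2a1 genes are near-identical copies, so their counts are uncertain.

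**Figure D4:**
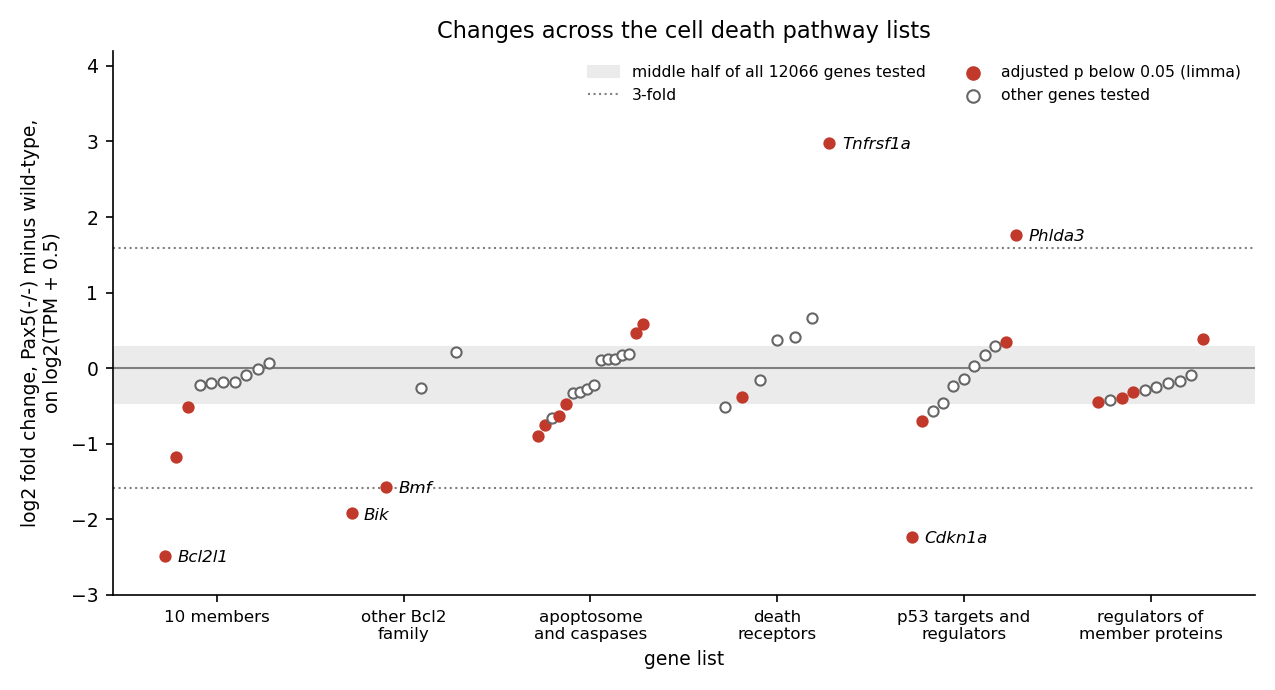
Log2 fold changes (Pax5(-/-) minus wild-type) of the 10 genes and of the 48 tested genes of 5 cell death lists, each point a gene, filled where the adjusted p was below 0.05; the grey band spans the quartiles of all genes and the dotted lines mark 3-fold. Labelled genes are those past the study's thresholds together with Bmf and Bik, and most of the other points lie within 1 log2 unit of 0.

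Changes in the wider pathway were about as frequent as among all genes. Of 57 genes in 5 lists, 48 could be tested, 12 of which (including both genes above) were lower and 6 higher, where 21.5% of all genes were lower and 15.6% higher. The median log2 fold change of the 48 genes was -0.23, and that of all genes -0.12. With quantile-normalized libraries the counts were 10 and 10. Of 16 apoptosome and caspase genes, 4 were lower and 2 higher, shares near those of all genes. Birc3, an inhibitor of apoptosis protein, was at 34.3 to 42.4 TPM in wild-type and at 20.2 and 21.8 TPM in Pax5(-/-) cells (log2 fold change -0.89, adjusted p = 0.00288, limma). Apaf1, the scaffold of the apoptosome, was at 30.8 to 35.0 and at 20.4 and 18.6 TPM (log2 fold change -0.76, adjusted p = 0.00393, limma). The 2 higher genes were Casp6, an executioner caspase, at 31.7, 35.8 and 34.6 TPM in wild-type and at 49.6 and 52.5 TPM in Pax5(-/-) cells (log2 fold change 0.58, adjusted p = 0.00753, limma), and Htra2, whose product antagonizes inhibitors of apoptosis, at 58.6 and 80.3 TPM on average (log2 fold change 0.46, adjusted p = 0.0284, limma). Htra2 carries the mark for overlap with another gene.

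Of 8 genes of the death receptor pathway, 7 could be tested, with 1 lower and 1 higher. Tnfrsf1a, which encodes TNF receptor 1, was at 3.82, 9.05 and 9.31 TPM in wild-type and at 56.2 and 59.7 TPM in Pax5(-/-) cells (log2 fold change 2.98 ± 0.35, adjusted p = 0.000671, limma). Its adaptor Tradd was lower, at 77.4 and 59.3 TPM on average (log2 fold change -0.38, adjusted p = 0.0209, limma). Fas stayed under 0.83 TPM in all 5 mm9 libraries.

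Of 13 targets and regulators of p53, which controls Bbc3, Pmaip1 and Bax among others, 11 could be tested, with 2 lower and 2 higher. Cdkn1a, encoding the cell cycle inhibitor p21, was at 101, 107 and 105 TPM in wild-type and at 24.3 and 19.6 TPM in Pax5(-/-) cells (log2 fold change -2.23 ± 0.12, adjusted p = 2.43e-05, limma). Phlda3, an inhibitor of Akt, was at 11.7, 13.0 and 11.5 TPM in wild-type and at 44.1 and 40.3 TPM in Pax5(-/-) cells (log2 fold change 1.76 ± 0.14, adjusted p = 0.000113, limma). Thus these 2 target genes of p53 changed in opposite directions. Trp53 itself was higher by 0.35 on the log2 scale (adjusted p = 0.0272, limma), and Mdm2, encoding the ligase that degrades p53, was lower, with a log2 fold change of -0.69 (adjusted p = 0.0110, limma).

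Of 10 genes whose products act on the member proteins, 3 were lower and 1 higher. Ywhab, a 14-3-3 protein of the family that binds phosphorylated Bad, was at 250 and 184 TPM on average (log2 fold change -0.44, adjusted p = 0.00885, limma). Dynll1, the dynein light chain that binds Bim, was at 256 and 195 TPM (log2 fold change -0.39, adjusted p = 0.0120, limma). Pim1, a kinase that can phosphorylate Bad, was higher, at 273 and 355 TPM (log2 fold change 0.38, adjusted p = 0.0167, limma). The Mcl1 regulators Usp9x, Huwe1 and Fbxw7 did not pass the test, with adjusted p of 0.347, 0.662 and 0.246 (limma).

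Levels set across the mm9 and mm10 tables rest on separate alignments and annotations. Some genes differed widely between the wild-type and Meox2-cre libraries, such as Cycs at 25.3 to 26.7 TPM in wild-type and 0.845 to 1.14 TPM in Meox2-cre libraries. For the members with a mean above 5 TPM, the ranges of wild-type and Meox2-cre libraries overlapped for Bcl2l1, Bax, Bak1, Bcl2l11, Bid and Bbc3, while every Meox2-cre value of Mcl1 and of Bad lay narrowly above the highest wild-type value. The lowest Meox2-cre value of Mcl1 was 187.4 TPM, against a highest wild-type value of 186.8 TPM. For Bad these values were 71.11 and 71.01 TPM.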

How the data were processed

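Poly(A)-selected RNA of sorted pro-B cells had been sequenced. For the wild-type and Pax5(-/-) libraries the authors aligned reads to mm9 with TopHat 1.4.1a, and for the Meox2-cre libraries to mm10 with STAR 2.4.2a. Reads per gene were counted with featureCounts 1.5.0, and the deposited TPM values were calculated by the authors from these counts, immunoglobulin and T cell receptor genes included. No strand setting was stated for the counting, so that reads of overlapping genes on opposite strands may be shared.

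Here, genes whose mean exceeded 1 TPM in either genotype were tested with limma 3.58.1 (R 4.3.3), with a trended variance prior, on log2(TPM + 0.5) over 3 wild-type and 2 Pax5(-/-) libraries, with Benjamini-Hochberg adjustment over 12066 genes. Fold changes on this scale understate those of low genes. The procedure was tested on simulated data. The thresholds of the study were an adjusted p below 0.05, a change of over 3-fold and a mean above 5 TPM, antigen receptor genes excepted. The members and gene lists were chosen with earlier results of these data known. Named besides the members were Pax5, the sorting markers, the genes of each list past these thresholds and up to 3 others with the largest changes, and the 3 genes nearest to a member past them. Other genes named (markers, untested genes, genes listed at 0, Casp6 and Htra2) were chosen after their values were seen. Alternatives were other pseudocounts, filters, scalings, variance priors and thresholds, and leaving out each library. Promoter sequences came from RefSeq (GRCm38.p6), gene positions from GENCODE on mm9. Some genes that these rules name are not reported here. ChIP-seq samples were not analysed here.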

Additional observations from a re-analysis of the deposited data

How the results depend on the processing

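Bcl2l1 was lower and passed the test in all 15 tested alternatives, with log2 fold changes from -2.56 to -2.37 and adjusted p from 3.86e-06 to 0.00426 (limma), including a test against a 3-fold change. The count of members past the study's thresholds was 1, and that of higher members 0, in every alternative run. The count of lower members was 3, 2 with a 5 TPM filter, without a variance trend or with quantile normalization, and 1 to 3 when single libraries were left out. It was 1 without either Pax5(-/-) library, where the lone sample was assumed to vary like the wild-type group. Small differences changed sign. The log2 fold change of Bad was 0.105 with median-ratio rescaling, 0.0945 with quantile normalization, and -0.109 to 0.0614 when single libraries were left out, above 0 without wild-type replicate 1 or 2 or Pax5(-/-) replicate 1. That of Bak1 was 0.0151 and 0.010 with median-ratio rescaling and quantile normalization. That of Bbc3 was -0.0850 to 0.173 when single libraries were left out, below 0 without wild-type replicate 3. None of these passed the test.

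The higher pathway list genes numbered 10 in place of 6 with quantile normalization, which moves the median of all genes from -0.12 to -0.02. Median-ratio rescaling gave summed TPM in Pax5(-/-) cells of 148 for pro-survival and 169 for BH3-only genes. Adding the other family genes gave 150 for pro-survival genes in Pax5(-/-) cells, 647 and 605 for effectors in wild-type and Pax5(-/-) cells, and 217 and 174 for BH3-only genes. No paired analysis was possible because no label links a wild-type to a Pax5(-/-) library. With 2 Pax5(-/-) libraries of unequal estimated depth and unknown read numbers, small differences could not be resolved.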
